A study of Mus musculus with 4 samples.

Results

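The interferon-induced gene families examined here were all protein-coding genes of the GENCODE M1 annotation whose symbols start with Ifit, Ifitm, Oas, Gbp or Isg, or with Ifi and a digit, together with Mx1 and Mx2. This rule took 48 of 22367 protein-coding genes on the nuclear chromosomes of mouse genome build mm9. A Runx3-occupied region (peak) was assigned to a gene when its centre lay in the gene body or within 10 kb of one of the gene's transcription start sites (TSS), and 27 of the 15121 peaks were assigned to these families. The peaks came from chromatin immunoprecipitation with sequencing (ChIP-seq) of freshly sorted splenic CD11chiMHCII+CD4+ dendritic cells (DC) of wild-type mice, pooled from about 15 animals. The samples were 2 Runx3 immunoprecipitates, made with an in-house polyclonal anti-Runx3 antibody, and 2 input samples of whole cell extract, which are the background measured in the same cells. The labels give the strain as C57BL/6, except for 1 input sample where it reads C57BL/7, and they give no age and no treatment. MACS2 was run once on both immunoprecipitates against both inputs, so each peak has 1 score and no value per replicate. No spread between replicates can therefore be given for any peak, the depth per sample is unknown from the list, and no difference was tested. All intervals printed are Wilson 95% intervals of a share and cover counting error only.

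Type I and type II interferons act through surface receptors and Janus kinases on STAT and IRF transcription factors, which bind the interferon-stimulated response element (ISRE) or the gamma-activated site (GAS) of their target genes. The families described here are the classical products of that response: Ifit proteins bind viral RNA, Oas enzymes make the oligoadenylates that activate RNase L, Mx and Gbp proteins are large GTPases directed against viruses and intracellular pathogens, Ifitm proteins block viral entry at membranes, and the HIN-200 proteins of the Ifi20 group bind DNA. Runx3 is a transcription factor whose runt domain recognises the hexamer TGTGGT. Whether a Runx3 peak lies at a gene says nothing on whether that gene is expressed.

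The sequences below come from Runx3 peaks at these families that held TGTGGT, as 14 of the 27 member peaks did. They are stretches around the TGTGGT hexamer nearest to the peak centre, in the highest-scoring peak with a hexamer of the Oas, Isg and Ifitm families and in the higher-scoring pair of Gbp peaks. All are given on the plus strand of mm9, with the hexamer in capitals, and ACCACA is the hexamer read on the other strand.
Oas3, intron 1, chr5:121225808-121225893: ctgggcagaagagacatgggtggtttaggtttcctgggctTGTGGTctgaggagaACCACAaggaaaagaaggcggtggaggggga
Gbp5, upstream, chr3:142156513-142156598: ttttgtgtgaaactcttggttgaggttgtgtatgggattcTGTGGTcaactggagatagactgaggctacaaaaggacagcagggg
Gbp8, intron 1, chr5:105481342-105481427: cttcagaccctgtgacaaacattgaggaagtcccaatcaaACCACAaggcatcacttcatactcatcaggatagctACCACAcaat
Isg20, upstream, chr7:86057363-86057448: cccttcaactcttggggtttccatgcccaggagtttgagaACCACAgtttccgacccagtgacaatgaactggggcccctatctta
Ifitm2, downstream, chr7:148139918-148140003: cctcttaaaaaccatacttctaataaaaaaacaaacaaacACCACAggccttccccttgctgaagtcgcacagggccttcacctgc

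The ISRE core, GAAANNGAAA on either strand, was looked for between 250 bases before and 50 bases after each TSS. The following promoter stretches are shown because their genes are members with this element in the promoter, and none of the elements lay inside a Runx3 peak. They run along the strand of the gene, with the ISRE core in capitals, and overlapping cores run together.
Ifit1, chr19:34715263-34715315, plus strand: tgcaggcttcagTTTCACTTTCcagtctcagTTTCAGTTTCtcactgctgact
Ifit3, chr19:34657851-34657918, plus strand: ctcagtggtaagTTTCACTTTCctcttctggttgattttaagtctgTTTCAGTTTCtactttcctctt
Isg15, chr4:155574972-155575017, minus strand: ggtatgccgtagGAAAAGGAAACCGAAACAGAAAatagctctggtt
Oas1a, chr5:121357527-121357566, minus strand: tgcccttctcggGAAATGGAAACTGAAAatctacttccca
Oas1g, chr5:121337613-121337652, minus strand: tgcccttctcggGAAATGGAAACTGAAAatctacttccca
Oas1b, chr5:121262610-121262649, plus strand: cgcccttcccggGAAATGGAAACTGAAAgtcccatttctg
Gbp2, chr3:142283556-142283589, plus strand: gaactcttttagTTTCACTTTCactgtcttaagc
Gbp3, chr3:142222951-142222990, plus strand: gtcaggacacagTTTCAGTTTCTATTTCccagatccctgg
Ifitm3, chr7:148196620-148196653, minus strand: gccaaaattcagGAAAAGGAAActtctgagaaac
The stretches of Oas1a and Oas1g, neighbouring paralogs, are identical base for base, and that of Oas1b carries the same joined element.

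Runx3 peaks were found at 19 of the 48 family genes, or 39.6% (27 to 53.7%). Across all protein-coding genes the same rule called 39.9%, so the families as a group held peaks about as often as genes at large. Close to the members' own TSS the shares were lower, without a test. Peaks centred less than 1 kb from a TSS were present at 4 members, Oasl1, Isg20, Gbp3 and Ifi35, or 8.33% (3.29 to 19.6%), where 24.9% of all protein-coding genes had one. A peak that covered the TSS itself was found at 1 member, Ifi35, or 2.08% (0.369 to 10.9%), against 18.8% of all protein-coding genes. Seen from the peaks, 4 of the 27 member peaks, 14.8% (5.92 to 32.5%), were centred within 1 kb of a member TSS, and 12 of 27, 44.4% (27.6 to 62.7%), were within 1 kb of the TSS of any protein-coding gene. By that same measure the share was 46.8% of the 11727 peaks assigned to any protein-coding gene, so the member peaks lay near a TSS about as often as others, but in most such cases near that of a neighbouring gene.

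The families differed in how many genes carried a peak. No Ifit gene had one, while peaks were assigned to 4 of 12 Oas genes, 1 of 3 Isg genes, 1 of 2 Mx genes, 3 of 11 Gbp genes, 4 of 6 Ifitm genes, 2 of 4 HIN-200 genes and 4 of 7 other Ifi genes. With so few genes per family these counts carry wide counting error, and neighbouring genes of a cluster are not independent of each other. The region searched around a gene had a similar median length, 25.5 kb in members and 27.7 kb in all genes. Its upper quartile was lower in members, 32.4 kb against 53.6 kb. Of the 5452 protein-coding genes with a region in the middle range of the members, 45.6% (44.2 to 46.9%) had a peak. Counting only windows of 10 kb around each TSS, the members held 28.2 peaks per Mb over 0.958 Mb, and all protein-coding genes held 17.3 peaks per Mb over 531 Mb. Peaks were spread unevenly over the members: 12 had 1 peak and 7 had 2 or more, and 29 had none. Among all protein-coding genes 16% had 2 or more peaks.

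**Figure D1:**
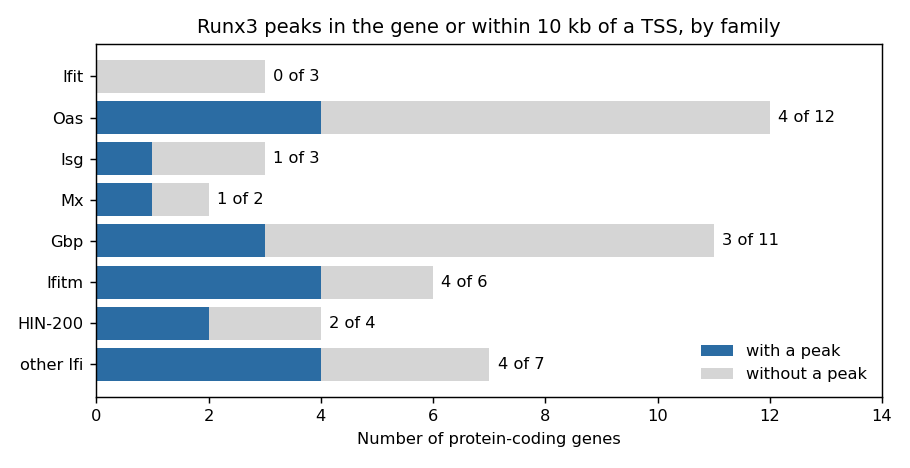
Number of genes with a Runx3 peak (blue) and without one (grey) in each interferon-induced family, by the rule of a peak centre in the gene body or within 10 kb of a TSS. The Oas and Gbp families contributed 12 and 11 genes with 4 and 3 of them holding a peak, and none of the 3 Ifit genes held one.

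The Ifit genes, Ifit1, Ifit2 and Ifit3, lie in a cluster of 99.3 kb on chromosome 19 that contained no peak at all. From the TSS of Ifit2, the nearest peak centre was 29019 bp away, that of Ifit3 61856 bp and that of Ifit1 84709 bp. The peak nearest to both Ifit2 and Ifit3 scored 5.30, and its own nearest TSS was that of Lipa. The part of this cluster that reads of 50 bases can reach differs by gene. Within 1 kb of the TSS, 99.8% of the 50-base words of Ifit1 occurred once in the genome, 93.3% of those of Ifit2 and 51.3% of those of Ifit3.

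Among the Oas genes, Oas3 had the highest score. Its main peak, at chr5:121225488-121226034, scored 49.26, which placed it at percentile 92.6 of the whole list. It was 547 bp wide and lay in intron 1, 1888 bp downstream of the nearest Oas3 TSS, and the stretch shown above holds both of its TGTGGT hexamers. A smaller Oas3 peak, of score 6.65, was centred 2573 bp upstream and held 1 hexamer. Oas1h had a peak of score 5.96 in intron 2, 3993 bp from its TSS, and Oas1g one of score 4.79 that lay 7220 bp upstream. Both held 1 hexamer, and both scored below the first quartile of the list, 7.20. The remaining genes of this cluster, Oas2 and Oas1a to Oas1f, had no peak, with nearest peak centres between 12688 bp (Oas1a) and 32401 bp (Oas1b) away.

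Oasl1, which encodes an Oas-like protein without the synthetase activity, had the weakest peak of all members directly upstream of its TSS. That peak, at chr5:115372988-115373240, scored 2.32, was 253 bp wide, was centred 135 bp upstream and held no hexamer. Its other peak scored 22.33 and held 2 ISRE cores and no TGTGGT. That peak was centred 6155 bp downstream of the nearest Oasl1 transcript start, which is not the gene's first base. It lay in exon 1 of the gene 2210016L21Rik and 22 bp from that gene's TSS. Oasl2, the neighbour of Oasl1, had no peak nearer than 14438 bp, although its promoter holds a hexamer.

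Of the Isg genes, Isg20, an exonuclease, had a pair of upstream peaks. They were centred 936 and 1879 bp before the TSS, scored 9.69 and 5.26, and were 327 and 326 bp wide, each with 1 TGTGGT. The peak closer to the TSS, at chr7:86057211-86057537, stood at percentile 38.6 of the list. Isg15, the ubiquitin-like modifier and one of the most commonly used markers of an interferon response, had no peak, and the nearest centre was 35030 bp from its TSS. Its promoter holds 3 overlapping ISRE cores, in the stretch printed above, and 96.8% of the 50-base words around its TSS were unique. Isg20l2, which encodes a nucleolar exonuclease, had its nearest peak 24194 bp away.

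Mx1 had 1 peak of score 5.96, centred 5264 bp upstream, with no TGTGGT. For Mx2 this same peak was the nearest, at 67912 bp. The promoters of both genes nevertheless hold the hexamer, at position -107 from the TSS in each and in similar surroundings, but no peak covered either. These promoter stretches are shown along the strand of the gene with the hexamer in capitals.
Mx1, chr16:97684602-97684635, minus strand: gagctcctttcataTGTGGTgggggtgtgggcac
Mx2, chr16:97757569-97757602, plus strand: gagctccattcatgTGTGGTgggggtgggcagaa

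The Gbp genes form separate clusters on chromosomes 3 and 5, with 1 peak inside each. On chromosome 3, Gbp5 had a peak of score 30.46 at chr3:142156317-142156717, at percentile 83.2, centred 3347 bp upstream of its TSS. It held 1 TGTGGT and, unlike most member peaks, an ISRE core, shown here in capitals on the plus strand.
Gbp5 peak, chr3:142156294-142156363: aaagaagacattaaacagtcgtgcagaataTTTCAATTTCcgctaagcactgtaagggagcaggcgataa
Gbp3 had a peak of score 7.84 in intron 1, at chr3:142223517-142223894, centred 330 bp after its nearest transcript start and with 1 hexamer 40 bp from its centre. That start lies downstream of the gene's first base, which the promoter window is counted from. The peak did not reach the joined ISRE cores of the Gbp3 promoter. Gbp1, Gbp2 and Gbp7 had no peak, and their nearest peak centres were 34106, 59861 and 30399 bp away.

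On chromosome 5, the 6 Gbp genes of a 330 kb cluster held 1 peak in all. It lay in intron 1 of Gbp8, 1194 bp after the TSS at chr5:105481204-105481568, and scored 25.84, at percentile 78.7. Of its 2 hexamers, 1 stood 1 bp from the peak centre, as the stretch above shows. Gbp4, Gbp6, Gbp9, Gbp10 and Gbp11 had no peak nearer than 51360 bp, and for Gbp10 the distance was 155756 bp. The cluster held 3.03 peaks per Mb, against 5.91 peaks per Mb of sequenced genome and 7.09 per Mb in the Gbp cluster on chromosome 3. Each of these cluster densities rests on 1 peak.

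The promoters of the Gbp clusters also differed in sequence. All 5 genes on chromosome 3 held an ISRE core in the promoter window and 1 of them, Gbp2, held TGTGGT. None of the 6 genes on chromosome 5 held an ISRE core there, and 5 held TGTGGT. With a window from 500 bases before to 100 after the TSS, 1 of the 6, Gbp10, gained an ISRE core. In Gbp4, Gbp6, Gbp8 and Gbp9 the hexamer stands at the end of a run of TG repeats, as these stretches along the strand of the gene show. No peak covered any of them.
Gbp4, chr5:105568595-105568628, minus strand: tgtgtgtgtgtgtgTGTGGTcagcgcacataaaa
Gbp6, chr5:105722740-105722773, minus strand: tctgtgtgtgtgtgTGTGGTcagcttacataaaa
Gbp8, chr5:105482616-105482649, minus strand: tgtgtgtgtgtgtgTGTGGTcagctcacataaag
Gbp9, chr5:105539319-105539352, minus strand: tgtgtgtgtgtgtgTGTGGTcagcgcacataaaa
The median share of unique 50-base words within 10 kb of the TSS was 77.2% in the chromosome 5 cluster and 97.6% in that on chromosome 3, so reads could be placed less well on chromosome 5. The part of this in the low number of peaks was not tested.

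The Ifitm genes stood out for the number of peaks around them. Of 6 genes, 4 had a peak by the rule, and the highest-scoring member peak lay here. It spanned chr7:148132665-148133463, scored 114.6 and ranked 96 in the list of 15121 peaks, at percentile 99.4. It was 799 bp wide and held no TGTGGT. Its centre was 3074 bp downstream of the TSS of Ifitm5, the bone-restricted member of the family, and 8818 bp downstream of that of Ifitm2, and it lay in exon 14 of the neighbouring gene Athl1. A peak of score 19.31, 1917 bp downstream of the Ifitm2 TSS, held the hexamer shown above 4 bp from its centre and also lay 3827 bp upstream of Ifitm5. The third peak assigned to Ifitm5 scored 14.20 and was centred 55 bp from the TSS of Athl1, 8603 bp from that of Ifitm5. Ifitm3, a restriction factor of influenza virus entry, had a peak of score 15.73 centred 4259 bp downstream of its TSS, with 1 hexamer. Ifitm6 had a peak of score 6.57, 8038 bp upstream.

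The chromosome 7 cluster of 5 Ifitm genes spans 67.9 kb from Ifitm5 to Ifitm6 and contained 7 peaks, or 103 peaks per Mb. The sequenced genome held 5.91 per Mb and the regions searched around all protein-coding genes 9.91. In the larger Oas cluster the density was 20.9 per Mb, from 4 peaks. In the cluster of Oasl2 and Oasl1 it was 24.4 per Mb, from 1 peak, that of score 2.32. Of the 7 Ifitm cluster peaks, 5 lay in the gap between Ifitm1 and Ifitm3. These were more than 10 kb from any TSS of the cluster, and so were not counted as member peaks. Their scores were 55.33, 5.36, 5.86, 59.63 and 40.95 in the order of their positions. The peak of score 59.63 stood at percentile 95.4 and was 12814 bp from the TSS of Ifitm3, and it held no TGTGGT. Next to it, the peak of score 40.95 was the widest of the gap, at chr7:148184500-148185680, and held 3 hexamers. The peak of score 55.33, at chr7:148167561-148168052, was 13867 bp from an Ifitm1 TSS and held 2. Ifitm1 itself, with its nearest peak centre at 13155 bp, had none by the rule. Stretches of these gap peaks around the hexamer nearest to their centre are shown on the plus strand.
Gap peak of score 55.33, chr7:148167759-148167844: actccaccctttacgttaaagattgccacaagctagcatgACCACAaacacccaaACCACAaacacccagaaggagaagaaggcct
Gap peak of score 40.95, chr7:148184877-148184962: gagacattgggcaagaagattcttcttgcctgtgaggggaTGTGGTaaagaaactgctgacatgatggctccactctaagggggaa
Ifitm7, the single member of the family on chromosome 16, had its nearest peak 80067 bp away.

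**Figure D2:**
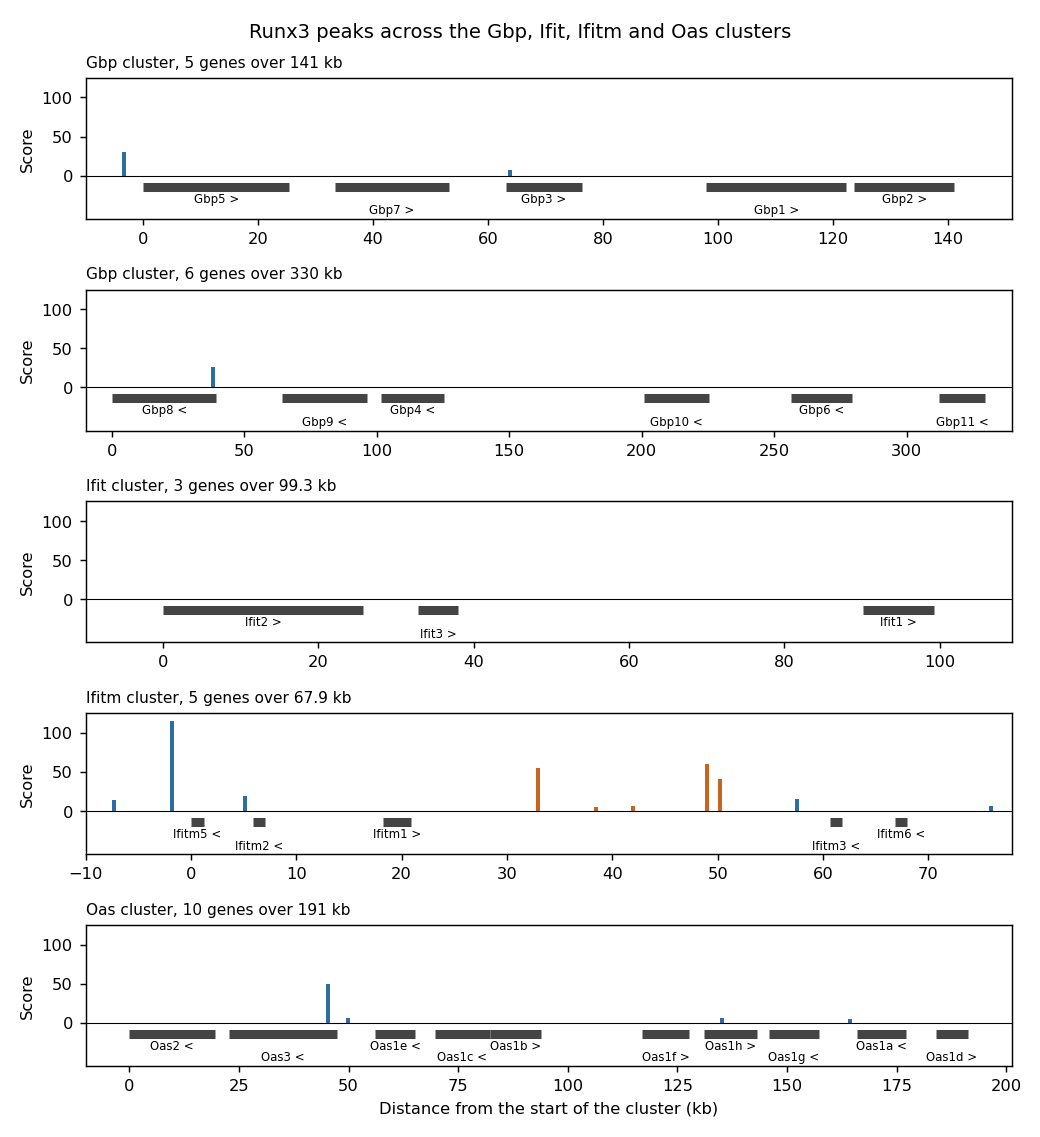
Position and MACS2 score of every Runx3 peak from 10 kb before to 10 kb after the Gbp, Ifit, Ifitm and larger Oas cluster, in kb from the start of each cluster. Dark bars are genes with an arrow for their strand, blue lines are peaks assigned to a member and orange lines are peaks assigned to none. The Ifitm panel shows 5 orange peaks with scores from 5.36 to 59.63 in the gap between Ifitm1 and Ifitm3, and the Ifit panel is empty.

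The HIN-200 genes, Ifi202b, Ifi203, Ifi204 and Ifi205, spread over 284 kb of chromosome 1. Ifi203 had a peak of score 7.68 centred 6431 bp upstream, with no hexamer. Ifi205 had one of score 6.57, centred 9061 bp upstream and 1117 bp from the TSS of the olfactory receptor gene Olfr433. Ifi204 and Ifi202b had none, with their nearest peak centres 24999 and 33741 bp away. The promoters of Ifi204 and Ifi205 are near copies, and each holds TGTGGT on the other strand, at positions -203 and -176 from the TSS and in capitals here. An ISRE core follows at positions -161 and -134.
Ifi204, chr1:175697234-175697267, minus strand: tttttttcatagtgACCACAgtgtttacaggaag
Ifi205, chr1:175962043-175962076, minus strand: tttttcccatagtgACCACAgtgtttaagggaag
No peak lay within 1 kb of either TSS. The likeness of these genes limits what can be read in this cluster: within 1 kb of the TSS the unique share was 64.7% for Ifi203, 70.1% for Ifi202b and 72.5% for Ifi204, and 100% for Ifi205.

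The other Ifi genes are grouped by name only, apart from the neighbours Ifi27l1, Ifi27l2a and Ifi27l2b. Ifi35, a leucine zipper protein, was the one member whose TSS was covered. Its peak at chr11:101309371-101309847 scored 20.06, at percentile 70.2, was 477 bp wide and was centred 112 bp upstream. The peak held no TGTGGT and no ISRE core but a GAS, TTCNNNGAA, which is palindromic and is shown in capitals on the plus strand.
Ifi35 peak, chr11:101309703-101309771: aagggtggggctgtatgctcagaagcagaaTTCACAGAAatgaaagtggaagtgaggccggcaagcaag
A further Ifi35 peak, of score 13.43, was centred 6120 bp upstream of Ifi35 and 11 bp from the TSS of the ribosomal protein gene Rpl27. Ifi47, an immunity-related GTPase, had a peak of score 11.96 in intron 2, with 1 hexamer. It was centred 7019 bp after the nearest Ifi47 transcript start, which is not the gene's first base. The annotated TSS nearest to this peak was that of Gm12188, at 5515 bp. The peak assigned to Ifi27l1 scored 8.60 and was centred 8334 bp upstream, 10 bp from the TSS of the helicase gene Ddx24. Ifi27l2a and Ifi27l2b had no peak nearer than 17803 and 26610 bp, and 51.7% of the 50-base words around the Ifi27l2b TSS were unique. Ifi44 was the most isolated member, with its nearest peak 596420 bp away.

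Ifi30, the lysosomal thiol reductase that unfolds antigens for presentation, had 4 peaks, more than any other member. Their scores were 66.99, 26.73, 25.75 and 12, of which the first stood at percentile 96.5. None held TGTGGT. They were centred 9604, 2116 and 1289 bp upstream and 5538 bp downstream of the nearest Ifi30 TSS, but each was nearer to a TSS of another gene. The peak of score 66.99, at chr8:73300233-73301076, was 844 bp wide and centred 42 bp from a TSS of Pik3r2, a regulatory subunit of phosphoinositide 3-kinase. Those of scores 26.73 and 25.75 lay inside Pik3r2, 121 and 948 bp from another annotated TSS, and that of score 12 was 204 bp from the TSS of Mpv17l2. A peak within 10 kb of Ifi30 therefore cannot be told apart from a peak of Pik3r2 or Mpv17l2.

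The same held for other members. For 16 of the 27 member peaks the nearest annotated TSS belonged to a member, and for 11 it belonged to another gene. Those 11 peaks were centred a median of 121 bp from that other TSS (10 to 5515 bp), and 8 of them lay within 1 kb of it. The 16 peaks nearest to a member were a median of 2245 bp (112 to 7220 bp) from its TSS, and 4 lay within 1 kb. The peaks nearest to another gene also had more GC, with a median of 58.6% and 24 CpG dinucleotides per peak, against 47.5% and 5. TGTGGT was present in 11 of the 16 peaks nearest to a member, 68.8% (44.4 to 85.8%), and in 3 of the 11 others, 27.3% (9.75 to 56.6%). The intervals of these shares overlap. Upper-quartile scores were found in 4 of the 16 and 3 of the 11. The median score was 8.765 (2.32 to 114.6) in the 16 and 13.43 (6.57 to 66.99) in the 11, next to 12.14 over all peaks. This difference was not tested.

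**Figure D3:**
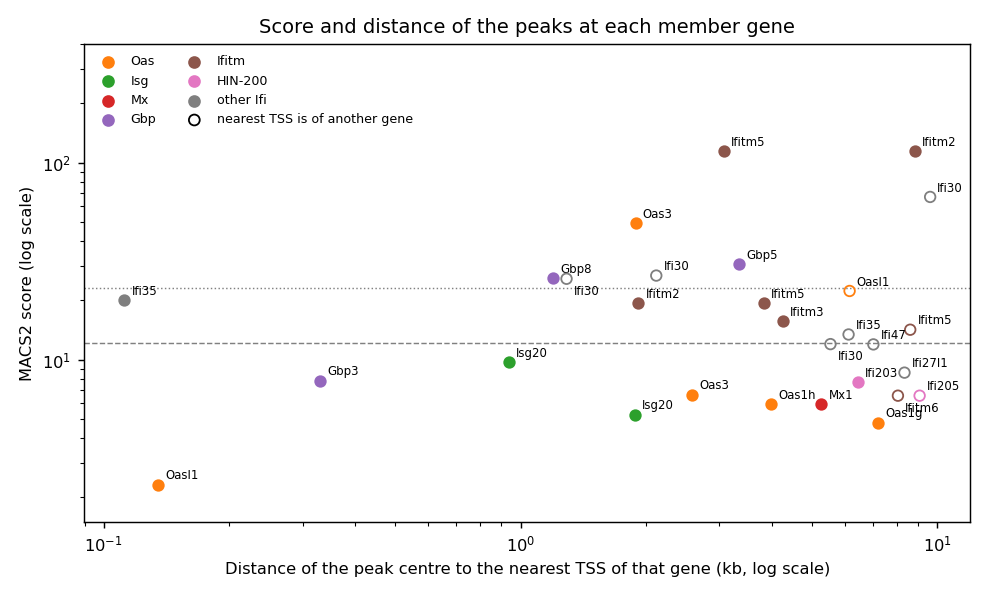
MACS2 score of each member peak against the distance of its centre to the nearest TSS of the member it was assigned to, both on log scales, coloured by family. A peak that lies at both Ifitm2 and Ifitm5 is drawn for each, filled points are peaks whose nearest TSS is of a member, and open points are peaks whose nearest TSS is of another gene. The dashed and dotted lines mark the median (12.1) and upper quartile (23.2) of all 15121 scores, and the 4 peaks within 1 kb of a member TSS all lie below the upper quartile.

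In strength the member peaks were ordinary. Their scores had a median of 12 (quartiles 6.61 and 24.0, range 2.32 to 114.6), and all 15121 peaks had a median of 12.1 (quartiles 7.20 and 23.2, range 1.33 to 309.3). The sources used here do not give a unit for this score. A score at or above the upper quartile of the list was reached by 7 of the 27 member peaks, 25.9% (13.2 to 44.7%), and by 25.4% of all peaks. By gene, 6 of 48 members had a peak of that score, 12.5% (5.86 to 24.7%), against 13.9% of all protein-coding genes. These were Oas3, Gbp5, Gbp8, Ifitm2, Ifitm5 and Ifi30. Just inside the upper quartile stood the peaks of Ifi30 (25.75) and Gbp8 (25.84), and just outside it that of score 22.33 at Oasl1. Width also matched, with a median of 401 bp for member peaks and 406 bp for all.

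TGTGGT was as common in the member peaks as elsewhere. It was found in 14 of 27, 51.9% (34 to 69.3%), and in 54.0% of all peaks. Within the central 200 bp the shares were 44.4% and 41.8%. Interferon motifs were found in few of them. An ISRE core was present in 3 of 27 member peaks, 11.1% (3.85 to 28.1%), and in 6.48% of all peaks. These were the peak of Gbp5, that at the TSS of 2210016L21Rik near Oasl1 and that at the TSS of Athl1 near Ifitm5. A GAS was present in 6 of 27, 22.2% (10.6 to 40.8%), against 12.5%, among them the peaks of Gbp8, Ifitm3, Ifi203 and Ifi35. The Ets-IRF composite element, GGAANNGAAA, which can overlap an ISRE core, was present in 3 of 27, 11.1%, against 7.81%. It was held by peaks at Isg20 and Ifitm6 and by the peak of score 114.6, assigned to both Ifitm5 and Ifitm2. All of these intervals include the share among all peaks, so no difference was detectable with 27 peaks.

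The promoters, in contrast, carried the interferon motif far more often than promoters at large. An ISRE core lay in the promoter window of 19 of 48 members, 39.6% (27 to 53.7%), and of 3.78% of all protein-coding genes. A GAS was found in 9 of 48, 18.8% (10.2 to 31.9%), against 7.94%. Promoter TGTGGT was also more frequent, in 13 of 48 or 27.1% (16.6 to 41.0%), against 15.3% of all protein-coding promoters. Several of these promoters are copies of one another, as the stretches from the Gbp, Mx and HIN-200 genes show. The neighbours Oas1b and Oas1c, on opposite strands, share the same joined ISRE cores, which count for both. The 48 are therefore not independent.

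No Runx3 peak lay on a promoter ISRE core or promoter TGTGGT of a member, while the GAS at the start of Ifi35 was inside its peak. None of the 19 members with a promoter ISRE had the element inside a peak, which allows a share of up to 16.8% by the Wilson interval, and 12.2% of the 846 protein-coding genes with such an element did. Likewise, none of the 13 members with TGTGGT in the promoter had it inside a peak (up to 22.8%), and none had a peak within 1 kb of a TSS, where 17.7% and 24.3% of the 3414 protein-coding genes with a promoter hexamer did. Members with and without a peak held the promoter ISRE at similar shares, 8 of 19 or 42.1% (23.1 to 63.7%) and 11 of 29 or 37.9% (22.7 to 56.0%). Of the 846 genes with a promoter ISRE, 33.0% had a peak in the body or within 10 kb of a TSS.

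**Figure D4:**
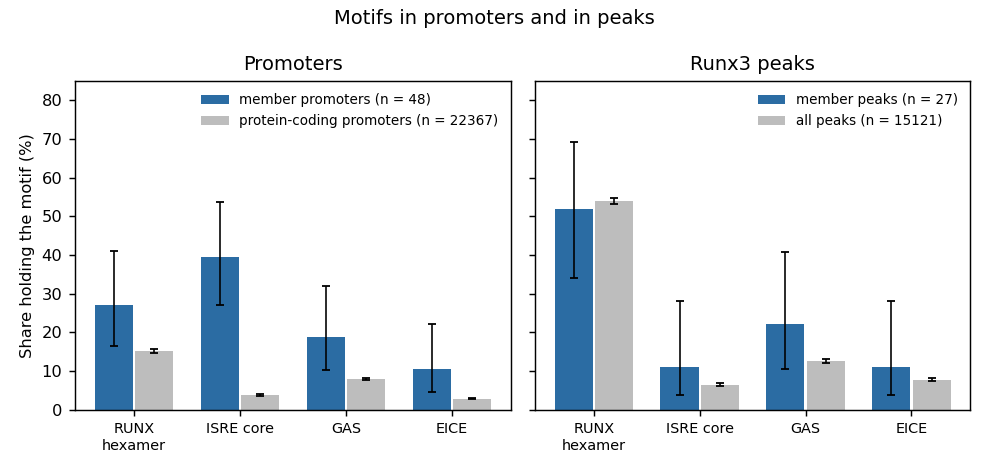
Share of promoters (left) and of Runx3 peaks (right) that hold the RUNX hexamer, the ISRE core, a GAS or the Ets-IRF element (EICE), for members (blue) and for all protein-coding promoters or all peaks (grey). Error bars are Wilson 95% intervals. The ISRE core stands at 39.6% of member promoters and 3.78% of all promoters, while in the peaks the intervals of the members include the share of all peaks for each motif.

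The families hold close paralogs, and reads were kept only where they aligned to a single place. Within 1 kb of the TSS the median share of unique 50-base words was 95.5% in members and 100% in all protein-coding genes. A share below 90% was found for 16 of 48 members, 33.3%, and for 14.4% of all genes. Peaks were found at 4 of those 16 members, 25% (10.2 to 49.5%), and at 11.8% of all genes below 90%. Among the 32 members at or above 90%, 15 had a peak, 46.9% (30.9 to 63.6%), against 44.7% of all such genes. Members with a peak had a median of 97% and members without one 93.3%. How many peaks went uncalled because reads could not be placed was not tested.

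A list of 48 interferon pathway genes outside these families, both signalling genes and induced ones, was examined by the same rule. A peak was found at 33 of them, 68.8% (54.7 to 80.1%), next to 39.6% of the families and 39.9% of all protein-coding genes, and these differences were not tested. Peaks lay at all 4 receptor chains, all 3 Janus kinases, 6 of 7 transcription factors, all 3 inhibitors and 5 of 6 nucleic acid sensors. For receptors, kinases, factors and inhibitors together the count was 16 of 17, 94.1% (73.0 to 99%), with the TSS covered in 10, and an ISRE core in 2 of the 17 promoters. Among the high scores were 103.15 at Ifnar2, a chain of the type I receptor, 59.12 at Ifngr2, a chain of the type II receptor, and 51.50 at the factor Irf3. Irf8, which specifies other DC subsets, was the factor with no peak by this rule, and Dhx58 the sensor. Their nearest peak centres were 34329 and 33995 bp from the TSS. In its gene clusters the paper counted Runx3 binding over a longer distance than the 10 kb used here.

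Among the other interferon-induced effectors of that list, peaks lay at 12 of 25, 48.0% (30.0 to 66.5%), an interval that includes the 39.9% of all protein-coding genes. A promoter ISRE was held by 11 of the 25. A peak within 1 kb of a TSS was found at 7 of the 25 and a covered TSS at 6, compared with 4 and 1 of the 48 family genes. Over all protein-coding genes these shares were 24.9% and 18.8%. Cmpk2, a mitochondrial nucleotide kinase, scored 47.28 with a peak 73 bp from its TSS, and Rsad2, its neighbour and the gene of viperin, had a peak of score 5.36 at 3549 bp. Eif2ak2, the RNA-activated kinase PKR, and the GTPase genes Irgm1, Igtp, Iigp1, Tgtp1 and Tgtp2 had none, while the related Irgm2 had a peak of score 44.17 at 7502 bp. The lists were chosen with results of these peaks known, and the shares are given as a description.

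**Figure D5:**
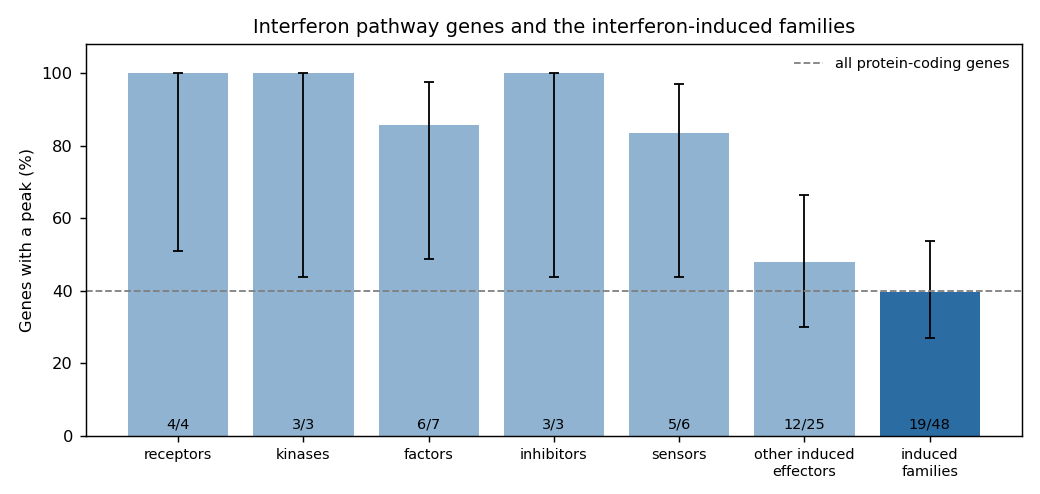
Share of genes with a Runx3 peak among interferon receptors, kinases, transcription factors, inhibitors, sensors and other induced effectors (light blue) and in the interferon-induced families (dark blue, labelled induced families), with the counts at the foot of each bar and Wilson 95% intervals. The dashed line is the share of all protein-coding genes, 39.9%, next to which the families stand at 39.6%, while receptors, kinases and inhibitors stand at 100%.

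Peaks lay at 9 of 10 genes chosen as markers of CD4+ DC (59.6 to 98.2%), with Esam as the exception. For other cells the counts were 2 of 3 for CD8+ DC, 2 of 3 for plasmacytoid DC and 1 of 2 for monocytes. They were 1 of 2 for T cells and 1 of 3 for B cells, and none of 4 lens and skin genes had a peak. The same rule called 39.9% of all protein-coding genes. The intervals of all marker sets other than CD4+ DC include that share, so these small sets cannot be told from genes at large. The CD4+ DC set holds Itgax, Itgam and Flt3, which the paper reports from the same data as occupied by Runx3. Its share therefore depends on the choice of genes and cannot set it apart from genes at large either. No difference was tested. The T cell gene with a peak was Cd3g, at a score of 99.56. Occupancy does not measure expression, so the purity of the sort cannot be read from this list.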

How the data were processed

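Per the labels and the paper's methods, 50-base reads from 2 Runx3 immunoprecipitates and 2 inputs were aligned uniquely to mm9 with Bowtie, after CASAVA 1.8 base calling, and MACS2 was run by the authors on the pooled samples. The tool versions of Bowtie and MACS2, the threshold and the handling of duplicates are not given in the sources used here. The authors deposited 1 list of peaks, each with a start, an end and a MACS2 score whose unit is not stated. Starts were counted from 1.

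Genes, transcripts and sequence came from GENCODE M1 on NCBIM37 (mm9), and 13 mitochondrial genes were left out. A gene's first base stood for its TSS in promoter windows, and all transcript starts were used for distances. Exons and introns are numbered along the gene. Motifs were matched exactly on both strands. Each 50-base word was called unique if it occurred once in the genome on either strand. Python 3.11.15, numpy 2.4.6, pandas 2.3.3, scipy 1.17.1 and numba 0.67.0 were used, and the assignment, motif and word counts were tested on simulated data. The highest-scoring peak of each family, peaks within 1 kb of a member TSS, upper-quartile peaks and the members with most peaks are described singly. Position, width and percentile are not printed for all of them. The Ifitm gap peaks, the cluster densities and the grouping by nearest TSS were added after values were seen. Members and lists were chosen with earlier results of these data known. Score cutoffs, distance limits, joined peaks, other windows and the looser hexamer were tried as alternatives.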

Additional observations from a re-analysis of the deposited data

How the results depend on the processing

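Of 59 alternatives, 46 left the value within the margin set for it (1.5 times for a count) and 13 moved it. With peaks at or above the median score, members with a peak numbered 9 (18.8%, against 25% of all protein-coding genes), their peaks 13 and the median score 25.8. At or above the upper quartile, 6 members (12.5% against 13.9%), 7 peaks and 16 pathway genes remained, the median score was 30.5 and no member peak (0%) lay within 1 kb of a TSS. A limit of 5 kb left 16 peaks and 13 members, 27.1% against 35.9% of all genes, and assignment to the gene with the nearest TSS also left 16 peaks, at 29.2% of members against 30.3% of all genes. A limit of 50 kb gave 37 members, 77.1% against 60.2% of all genes, and 59 peaks. The looser hexamer YGYGGT was found in 77.8% of member peaks and in 76.6% of all. Promoter ISRE cores were found in 50.0% of members from 500 bases before to 100 after the TSS, and in 43.8% over all transcript starts. No paired analysis was possible because the list pools the samples and has no value per replicate, and for the same reason no sample could be left out.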
